A study of Mus musculus with 2 samples.

Results

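The cells described here were lung alveolar macrophages (AMs) that carried transcripts of DNA replication genes but few or no transcripts of mitotic genes. They were chosen by their own counts: a cell was taken when at least 8 unique molecular identifiers (UMIs, each standing for 1 captured transcript) were summed over the 9 genes Pcna, Mcm2 to Mcm7, Tyms and Pclaf, and fewer than 3 were summed over the 6 genes Mki67, Top2a, Cdk1, Ccnb1, Birc5 and Ube2c. Only barcodes with at least 500 genes detected and at most 10% of UMIs from mitochondrial genes were considered. The rule gave 762 of 13851 filtered cells, 470 of 6185 in the control library and 292 of 7666 in the tumor library. They are called S-phase cells below, after the genes of the rule, and DNA synthesis was not measured. Filtered cells with at least 3 mitotic UMIs are called mitotic cells (435 control, 243 tumor). Of these, 344 control and 167 tumor cells also held at least 8 S-phase UMIs, so most of the mitotic class carried replication transcripts as well. Replication genes outside the rule summed to more in the mitotic class than in S-phase cells in both libraries, so neither name fixes a cell's phase. Cells in neither class are called remaining cells (5280 control, 7131 tumor), and the mitotic and remaining cells together are called other cells.

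Both libraries came from AMs of C57BL/6 mice that the labels place at postnatal week 10, sorted by flow cytometry from digested lungs of female animals as autofluorescent CD45+ Siglec-F+ F4/80+ cells. Control mice received vehicle, and tumor mice received Lewis lung carcinoma cells (LLC, a carcinoma line from the same mouse strain) that express tdTomato, placed in the left lung in Matrigel. There was 1 library per condition and the number of mice behind each was not given, so condition and library cannot be told apart, no test between conditions was possible, and every value below describes these 2 libraries. The files held 67847088 UMIs over 8485 barcodes for control and 70738320 UMIs over 9175 barcodes for tumor, and 25 barcode sequences occurred in both, none of them an S-phase cell. Levels are UMIs summed over the cells of a class and scaled to 1000000 UMIs of that class (CPM), with exact 95% Poisson intervals in parentheses where shown. Each UMI stands for the 3′ end of 1 transcript, so levels carry no scaling by gene length. Shares carry exact Clopper-Pearson intervals, and ratios of CPM carry exact conditional intervals. All intervals cover counting error only, not the spread between mice. Those of CPM and of ratios pool the UMIs of a class, so they also leave out the spread between cells.

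AMs are long-lived phagocytes of the airspaces that clear surfactant and inhaled particles, and they keep their number partly by dividing in place. Before a cell copies its DNA, the licensing factors Cdt1 and Cdc6 load the ring of Mcm2 to Mcm7 at replication origins, and the GINS complex and Cdc45 turn this ring into an active helicase. Pcna is the clamp that holds DNA polymerases on the template, Tyms makes thymidylate, and Pclaf binds Pcna. E2F transcription factors switch on these genes at the start of S phase, when DNA is copied, whereas Mki67, Top2a, Cdk1, Ccnb1, Birc5 and Ube2c peak later, in G2 and mitosis.

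The rule counted Pcna, Mcm5, Pclaf and Tyms alike, but these 4 genes did not contribute alike. The values in this paragraph chose the cells and are given as a description. Pcna was seen in 466 of 470 control cells (99.1%) and 287 of 292 tumor cells (98.3%), and its level was 363 CPM (348 to 378) and 382 CPM (363 to 403). Mcm5 was seen in 271 control cells (57.7%) and 177 tumor cells (60.6%), at 69.5 CPM (63.2 to 76.3) and 80.5 CPM (71.6 to 90.1). Tyms was seen in only 113 control cells (24.0%) and 57 tumor cells (19.5%), at 21.6 CPM (18.1 to 25.5) and 17.97 CPM (13.9 to 22.8). Pclaf was seen in 39 control cells (8.30%) and 26 tumor cells (8.90%), at 9.76 CPM (7.48 to 12.5) and 15.3 CPM (11.6 to 19.8). In the mitotic cells, Pclaf stood at 442 CPM in control and 399 CPM in tumor, and Tyms at 103 and 81.0 CPM. Of the UMIs that met the rule, Pcna gave 36.6% in control and 34.6% in tumor, the Mcm genes gave 60.2% and 62.4%, Tyms gave 2.17% and 1.62%, and Pclaf gave 0.984% and 1.38%. Neither a Tyms nor a Pclaf UMI was present in 328 control cells (69.8%) and 222 tumor cells (76.0%). The class was thus one of cells high in Pcna and Mcm transcripts, and 2 of the 4 markers that name it were not detected in most of its cells.

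**Figure D1:**
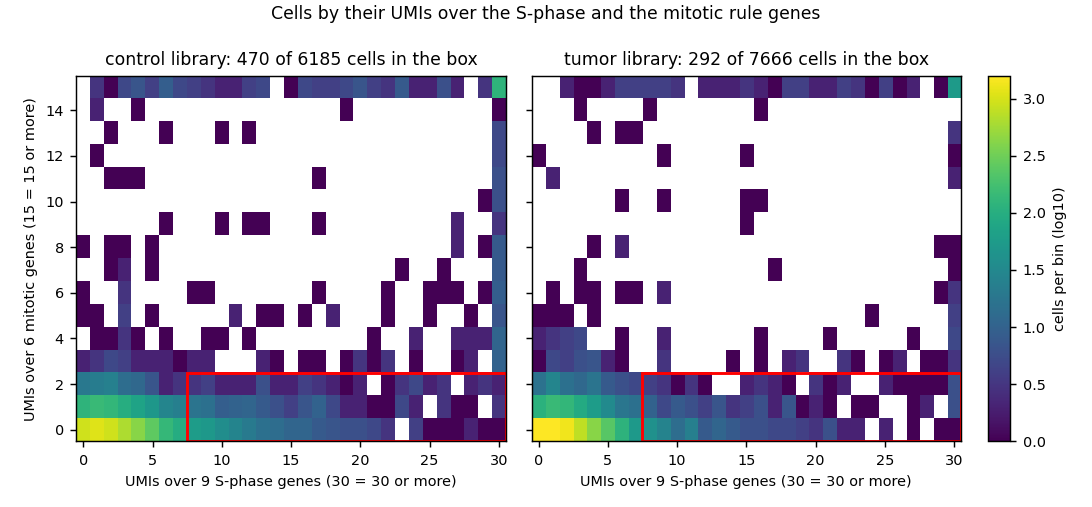
Filtered cells of each library by their UMIs over the 9 S-phase genes (horizontal axis) and the 6 mitotic genes (vertical axis), with shading for the number of cells and a red box around the cells of the rule. The box holds 470 of 6185 control cells and 292 of 7666 tumor cells, and cells with many mitotic UMIs lie above it at high S-phase counts.

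The 6 Mcm genes code for the subunits of 1 ring, and each was detected. In control S-phase cells their levels were 83.1 CPM for Mcm2, 152 CPM for Mcm3, 90.6 CPM for Mcm4, 69.5 CPM for Mcm5, 114 CPM for Mcm6 and 87.8 CPM for Mcm7. In tumor S-phase cells they were 95.7, 193, 94.4, 80.5, 141 and 86.6 CPM in the same order. In the remaining cells, Mcm3 was at 19.8 CPM in control and 20.5 CPM in tumor, and Mcm6 was at 11.7 and 9.26 CPM. Mitotic cells of the control library carried more of each subunit, with 182 CPM of Mcm3 and 183 CPM of Mcm7, and the tumor mitotic cells carried 159 and 139 CPM. In tumor the order was mixed, since Mcm2, Mcm3, Mcm4 and Mcm6 were lower and Mcm5 and Mcm7 higher in mitotic than in S-phase cells. A cell of the class had a median of 6 of the 9 S-phase genes detected in control and 5 in tumor. Pcna alone made up at least 75% of the S-phase UMIs in 17 cells of each library, and 5 control and 3 tumor cells were taken on 1 gene only.

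**Figure D2:**
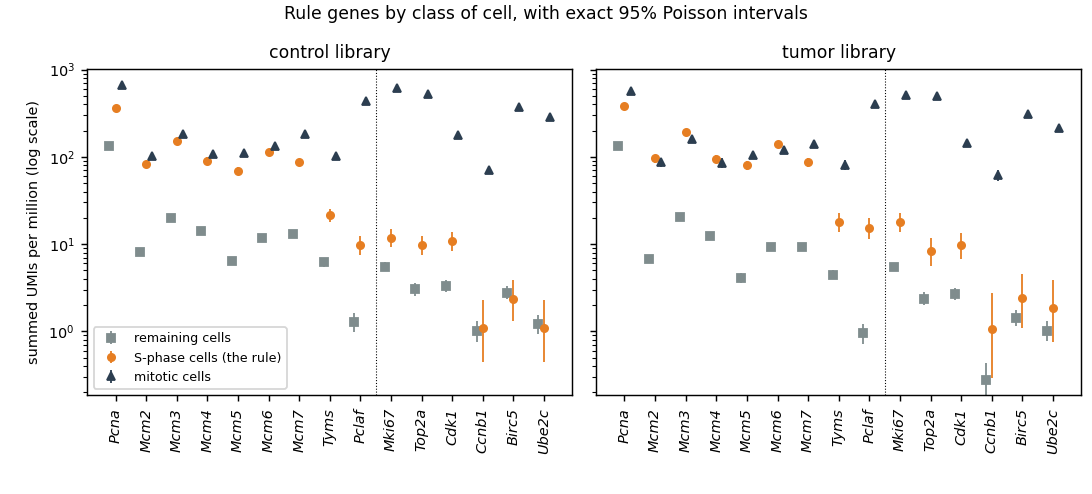
Level of the 9 S-phase and 6 mitotic genes of the rule (CPM, log scale) in S-phase, mitotic and remaining cells of each library, with exact 95% Poisson intervals. Pclaf and Tyms stand far lower in S-phase than in mitotic cells, at 9.76 against 442 CPM and 21.6 against 103 CPM in control.

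The start sites of several of these genes carry the letters that E2F factors are known to bind, and 4 stretches with matches upstream of the start site are shown for genes that define or lead the class. Of the rule genes Pcna, Mcm2 and Tyms had no match, and Mcm4 had no window here. Of the 10 leading genes, Dut, Dtymk, Hat1, E2f1 and Nasp had none. Mcm5 and Mcm6 are genes of the rule, and Topbp1 and Rbl1 are among the 10 leading genes outside it. The sequences are from RefSeq (GRCm38.p6, the assembly of mm10) and lie upstream of the start site used for each window. The annotated Topbp1 gene starts at position 103305215, so the end of its stretch lies inside that gene. Capitals mark the matches to TTTCCCGC, TTTCGCGC, TTTGCCGC or TTTGGCGC on either strand, and a run of 12 capitals holds a pair of overlapping matches, 1 on each strand. Each is written 5′ to 3′ on the strand of its gene. The Mcm5 stretch is chr8:75109336-75109387 on the plus strand, Mcm6 is chr1:128359725-128359835 on the minus strand, Topbp1 is chr9:103305178-103305225 on the plus strand, and Rbl1 is chr2:157204535-157204572 on the minus strand.
Mcm5: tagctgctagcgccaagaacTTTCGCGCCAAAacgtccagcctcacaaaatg
Mcm6: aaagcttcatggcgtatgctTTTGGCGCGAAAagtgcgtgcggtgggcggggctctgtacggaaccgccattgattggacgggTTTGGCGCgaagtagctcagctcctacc
Topbp1: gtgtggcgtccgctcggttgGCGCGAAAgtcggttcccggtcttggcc
Rbl1: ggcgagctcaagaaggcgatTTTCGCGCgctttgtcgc

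In windows from 250 bases before to 50 after each start site, these letters were present in 744 of 32851 windows (2.26%) and in 5 of the 9 windows matched to the S-phase genes of the rule. Among 52 listed genes of the replication machinery (licensing, initiation, polymerases and fork, without the genes of the rule), 41 were matched, and 15 of their 50 windows (30%) held the letters. Of the genes for G2 and mitosis, 2 of 33 windows (6.06%) held them, and of the AM identity genes 0 of 16. They were in 8 of 21 windows of G1/S regulators, 6 of 17 of repair genes and 6 of 26 of histones and chromatin assembly. Nucleotide supply had them in only 1 of 34 windows (2.94%), near the share of all windows. Lists outside the cell cycle held them too, with 3 of 13 for protein synthesis and nucleolus and 2 of 12 for lipid handling. The letters TTTGAA, read on both strands and known as the cell cycle homology region, were present in 17.9% of all windows, in 28 of 33 windows (84.8%) of G2 and mitosis genes and in 8 of 50 (16%) of the replication machinery. A match is a description of the sequence and not a measured binding site.

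The class made up 7.60% (6.95 to 8.29) of the filtered control library and 3.81% (3.39 to 4.26) of the filtered tumor library, a difference of 3.79 percentage points. The rule counts UMIs and so takes deeper cells more readily. S-phase cells held a median of 13007 UMIs in control and 12011 in tumor, against 9940.5 and 8044 in remaining cells and 14480 and 12129 in mitotic cells. Below 5000 UMIs, 12 of 850 control cells (1.41%) and 5 of 1302 tumor cells (0.384%) met the rule. From 8000 to 12000 UMIs the shares were 6.20% and 4.24%, and at 16000 UMIs or more they were 16.3% and 10.6%. The control share was the higher in each of the 5 depth ranges examined. When each cell was thinned at random to 3800 UMIs, leaving out 595 shallower control and 729 shallower tumor cells, the rule was met by 110 of 5590 in control (1.97%, 1.62 to 2.37) and 66 of 6937 in tumor (0.951%, 0.737 to 1.21). That difference was 1.02 percentage points (0.584 to 1.47), and with 1 library each its size beyond the spread between mice was not tested. The shares moved with depth, and filtered tumor cells were the shallower, with a median of 8264 UMIs against 10370 in control.

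The threshold cut a continuous range. Among cells with fewer than 3 mitotic UMIs, 122 control and 74 tumor cells stood just outside at 7 S-phase UMIs, and 78 control and 55 tumor cells just inside at 8. The replication machinery, which the rule did not count, summed to 969 CPM (923 to 1018) just outside and 1194 CPM (1126 to 1265) just inside in control, and to 832 CPM (777 to 889) and 1068 CPM (993 to 1146) in tumor. At the other limit, 56 control and 38 tumor cells with at least 8 S-phase UMIs stood inside at 2 mitotic UMIs, and 31 and 22 stood outside at 3. Most S-phase cells had no mitotic UMI, 291 of 470 (61.9%) in control and 177 of 292 (60.6%) in tumor.

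For genes outside the rule, ratios of S-phase cells were taken over other cells and over remaining cells, because mitotic cells were 435 of the 5715 other cells in control but 243 of 7374 in tumor and carry the same replication genes. A gene was counted as higher or lower when its ratio passed 1.5-fold, and in 1 direction in both libraries where a count is given for both. Over other cells, 1.9% of 10488 genes tested were higher and 3.37% lower in control, and 6.01% and 4.86% of 10511 genes in tumor. Both libraries together gave 1.05% higher and 1.05% lower of 10195 genes. Over remaining cells these shares were 4.73% and 2.38% in control, 7.56% and 4.4% in tumor, and 3.29% and 0.608% in both. These genes were read in the cells that the rule had chosen, so their levels are a description of the class and not separate evidence for it.

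Replication machinery stood well above the remaining cells. Of its 46 genes tested in both libraries, 21 were higher than in other cells and 37 higher than in remaining cells, and none was lower in both. Its summed level was 1494 CPM in control and 1492 CPM in tumor S-phase cells, against 786 and 710 CPM in remaining cells and 3042 and 2503 CPM in mitotic cells. The median log2 ratio over remaining cells was 1.28 in control and 1.54 in tumor, where the median over all genes was near 0. Lig1, which joins the pieces of the lagging strand, was at 67.3 CPM in control and 67.0 CPM in tumor S-phase cells. Its level in remaining cells was 6.90 and 5.72 CPM, a log2 difference of 3.29 (3.08 to 3.49) and 3.55 (3.31 to 3.79). Prim1, a subunit of the primase that starts each strand, was at 23.8 and 20.1 CPM against 2.49 and 2.04 CPM in remaining cells. Timeless, which with Tipin steadies the fork, was at 12.9 and 13.7 CPM against 1.23 and 1.18 CPM. Past 2-fold over other cells in both libraries were also the polymerase subunits Pola1, Pold2 and Pole2, the single-strand binding protein Rpa2, Tipin, and Gins1, Gins2 and Wdhd1. Among these and Lig1, Prim1 and Timeless, log2 ratios ran from 1.02 for Pold2 to 2.05 for Timeless in control, and from 1.19 for Pold2 to 2.75 for Timeless in tumor.

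Of the licensing and initiation genes, 13 of 18 were higher than in remaining cells in both libraries. Topbp1, which helps to activate the loaded helicase, was at 68.9 CPM in control and 75.9 CPM in tumor S-phase cells, against 21.1 and 17.7 CPM in remaining cells. Gmnn, the inhibitor of Cdt1, was at 63.4 and 63.3 CPM against 29.4 and 24.9 CPM. Cdt1 itself was at 49.7 and 61.7 CPM against 20.3 and 18.7 CPM. Inhibitor and target were thus both above the remaining cells. The GINS subunit Gins2 was at 30.7 and 29.0 CPM against 7.55 and 4.65 CPM, and Cdc45 at 9.76 and 12.6 CPM against 1.04 and 1.13 CPM. Cdc6 was at 2.83 and 6.70 CPM against 1.63 and 0.905 CPM in remaining cells and 26.9 and 22.4 CPM in mitotic cells, and in control the interval of its log2 ratio over remaining cells reached from -0.02 to 1.54. Orc4, a subunit of the origin recognition complex, was at 22.3 CPM in control and 20.7 CPM in tumor, and its log2 ratio over other cells was -0.08 and -0.01. Among the polymerase genes, Pold4 also stood near the other cells, with log2 ratios of -0.09 and -0.16.

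Per cell, the replication machinery outside the rule was spread over the class and not held by a few cells. At 3800 UMIs per cell, 88.1% of control and 84.2% of tumor S-phase cells had at least 3 of its UMIs, against 56.0% and 49.5% of remaining cells and 96.4% and 85.04% of mitotic cells. Without thinning these shares were 100% and 99.7% of S-phase cells and 86.3% and 81.5% of remaining cells. The median was 14.6 UMIs per 10000 in control and 14.3 in tumor S-phase cells, against 7.53 and 6.76 in remaining cells.

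Nucleotide supply followed in part. Of 27 genes, 9 were higher than in other cells and 19 higher than in remaining cells in both libraries. Dut, which keeps uracil out of DNA by clearing dUTP, was at 89.5 CPM in control and 78.3 CPM in tumor S-phase cells against 17.3 and 11.5 CPM in remaining cells. Dtymk, the thymidylate kinase, was at 100.5 and 94.1 CPM against 41.9 and 31.7 CPM. Both subunits of ribonucleotide reductase lay between the remaining and the mitotic cells. Rrm1, the large subunit, was at 60.6 and 63.3 CPM in S-phase cells, against 15.1 and 14.6 CPM in remaining and 233 and 205 CPM in mitotic cells. Rrm2, the small subunit, was at 6.29 and 6.97 CPM, against 1.02 and 0.759 CPM in remaining and 158 and 151 CPM in mitotic cells. Against mitotic cells Rrm2 had log2 differences of -4.65 and -4.44 against -1.94 and -1.70 for Rrm1. Tk1, the S-phase thymidine kinase, was at 28.5 and 21.5 CPM, between the remaining (2.01 and 1.24 CPM) and the mitotic cells (133 and 92.03 CPM). The genes with the most UMIs in this list, Nme1 and Cmpk1, had log2 ratios over other cells of 0.16 and 0.03 in control and of 0.25 and 0.01 in tumor.

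Genes that maintain DNA methylation and load histones stood above the remaining cells. Of 30 genes for histones and chromatin assembly, 11 were higher and 4 lower than in other cells in both libraries. Against remaining cells, 18 were higher in both. Dnmt1, which copies DNA methylation onto the new strand, was at 116 CPM in control and 149 CPM in tumor S-phase cells against 50.5 and 63.8 CPM in remaining cells. Uhrf1, which brings Dnmt1 to newly copied DNA, was at 30.4 and 32.5 CPM against 1.17 and 1.03 CPM, a log2 difference of 4.70 (4.28 to 5.14) and 4.97 (4.52 to 5.43). The chromatin remodeller Hells was at 29.7 and 37.3 CPM against 3.76 and 2.47 CPM. Chaf1a, a subunit of the complex that loads histones behind the fork, was at 28.3 and 35.4 CPM against 5.25 and 3.75 CPM. Chaf1b, of the same complex, had log2 ratios over other cells of 1.28 and 1.81. Histone genes did not move as one. Hist1h1b was at 0.629 CPM in control and 1.88 CPM in tumor S-phase cells, 0.748 and 0.840 CPM in remaining cells and 173 and 219 CPM in mitotic cells. Hist1h2ap was at 1.42 and 4.29 CPM against 0.786 and 2.49 CPM in remaining cells, past 1.5-fold in both libraries, and 187 and 339 CPM in mitotic cells. Hist1h2ae had log2 ratios over other cells of -2.25 and -1.10. Hist1h2bc ran the other way, at 141 and 171 CPM in S-phase cells, 211 and 234 CPM in remaining cells and 58.1 and 91.7 CPM in mitotic cells. Canonical histone transcripts lack a poly(A) tail and histone genes are near copies of each other, so their capture and assignment in this assay are uncertain. Among genes that reached 50 CPM in each library, ranked over both, the linker histone Hist1h1c stood lowest relative to other cells. It was at 28.8 CPM against 59.1 CPM in control and at 40.0 CPM against 83.7 CPM in tumor.

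**Figure D3:**
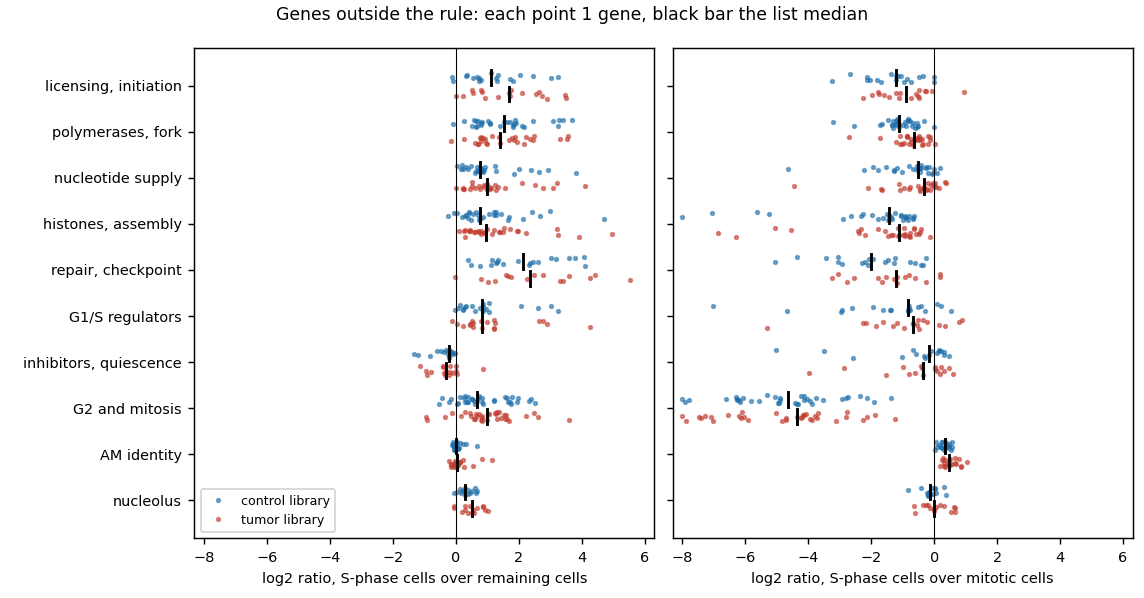
Log2 ratio of S-phase over remaining cells (left) and over mitotic cells (right) for genes outside the rule, 1 point per gene tested and library, with a black bar at each list's median. Points are drawn no further than -8 and 6. Replication machinery lies to the right of 0 against remaining cells (list medians of 1.11 and 1.54 in control) and to the left against mitotic cells, where G2 and mitosis genes have medians of -4.65 in control and -4.35 in tumor.

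The regulators of S-phase entry gave a mixed picture. Of 18 genes tested in both libraries, 3 were higher than in other cells in both (E2f1, Tfdp1 and Rbl1) and 1 was lower (E2f8). Against remaining cells, 8 were higher in both. E2f1, an activator of S-phase genes, was at 60.4 CPM in control and 73.2 CPM in tumor against 31.1 and 31.2 CPM in remaining cells. Rbl1, a pocket protein that restrains E2F factors, was at 50.03 and 59.3 CPM against 23.9 and 25.7 CPM. The cyclins E lay between the remaining and the mitotic cells. Ccne1 was at 5.66 and 9.12 CPM in S-phase cells, against 1.34 and 1.47 CPM in remaining and 34.5 and 43.5 CPM in mitotic cells. Ccne2 was at 7.55 and 10.7 CPM, against 0.940 and 0.565 CPM in remaining and 58.6 and 48.2 CPM in mitotic cells. E2f8, a repressor of E2F targets, was at 0.315 CPM in control and 1.07 CPM in tumor S-phase cells and at 40.5 and 42.9 CPM in mitotic cells. It was also among the 8 genes higher than in remaining cells in both libraries, but at these levels that rests on very few UMIs. The minimum for a gene was counted over all filtered cells, mitotic cells included. The D-type cyclin Ccnd2, which acts in G1, ran the other way, with 589 and 350 CPM in S-phase cells, 509 and 255 CPM in remaining cells and 410 and 202 CPM in mitotic cells.

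Cell cycle inhibitors lay on the low side. Of 16 genes tested in both libraries, none was higher and 3 were lower than in other cells in both, Cdkn2a and Cdkn2d among them. The list's median log2 ratio over other cells was -0.18 in control and -0.33 in tumor. Cdkn1a, which codes for the kinase inhibitor p21, was at 537 CPM in control S-phase cells, 752 CPM in remaining cells and 809 CPM in mitotic cells. In tumor it was at 566, 740 and 993 CPM in the same order. The log2 difference from other cells was -0.50 (-0.55 to -0.45) in control and -0.41 (-0.47 to -0.35) in tumor, inside the 1.5-fold limit. Btg1 and Klf4 were near the other cells in control, with log2 ratios of -0.17 and -0.02, and at -0.33 and -0.22 in tumor.

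Repair genes that act during replication stood well above the remaining cells, with 14 of 16 higher in both libraries. Ung, which removes uracil from DNA, was at 17.6 CPM in control and 17.97 CPM in tumor against 1.94 and 1.49 CPM in remaining cells. In mitotic cells it stood at 22.5 and 15.8 CPM, close to the S-phase cells. Msh6, of mismatch repair, was at 18.2 and 17.97 CPM against 6.42 and 6.01 CPM in remaining cells. The checkpoint kinase Chek1 was at 11.3 and 5.36 CPM against 2.22 and 0.969 CPM. Brca2, of homologous recombination, was at 14.9 and 14.5 CPM against 2.97 and 1.36 CPM.

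Genes for G2 and mitosis that the rule did not count lay far below the mitotic cells. The rule limits mitotic UMIs, so this is a description. Their median log2 ratio was -4.65 in control and -4.35 in tumor over mitotic cells. Over remaining cells it was 0.68 and 0.997. Of 35 genes tested in both libraries, 17 were lower than in other cells in both and none higher in both. Against remaining cells, 17 were higher in both and none lower in both. In tumor alone, 1 was higher than in other cells and 2 were lower than in remaining cells. Ccna2, the cyclin that acts through S phase and G2, was seen as 3 UMIs in all control and 1 UMI in all tumor S-phase cells, and stood at 103 and 112 CPM in mitotic cells. Cenpf was at 0.787 and 0.805 CPM against 214 and 189 CPM in mitotic cells. Past 2-fold below other cells in both libraries were also Cdc20, Plk1, Cenpa, Nusap1, Hmmr, Kif11, Kif20a, Kif2c, Ccnb2, Cdca3, Prc1 and Ncapg, whose products act on chromosomes, the spindle or mitotic exit. Smc2, a condensin subunit, was at 61.5 and 53.9 CPM, above the other cells at 47.4 and 32.5 CPM.

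Within the class and beyond it, the replication machinery was higher at each step of both rule counts. In control it summed to 762 CPM in cells with 0 to 3 S-phase UMIs, 854 CPM with 4 to 7, 1234 CPM with 8 to 11, 1589 CPM with 12 to 19 and 2066 CPM with 20 or more. In tumor the same ranges gave 695, 773, 1186, 1500 and 2283 CPM. Among cells with at least 8 S-phase UMIs it went from 1342 CPM at 0 mitotic UMIs to 1589 CPM at 1, 2109 CPM at 2, 2791 CPM at 3 to 9 and 3632 CPM at 10 or more in control, and from 1298 to 1693, 1941, 2530 and 3232 CPM in tumor. Pclaf, a gene of the rule, followed the mitotic count more steeply. It was at 5.08 CPM at 0 mitotic UMIs, 9.34 CPM at 1, 37.0 CPM at 2, 178 CPM at 3 to 9 and 658 CPM at 10 or more in control, and at 3.60, 16.1, 64.1, 214 and 625 CPM in tumor.

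**Figure D4:**
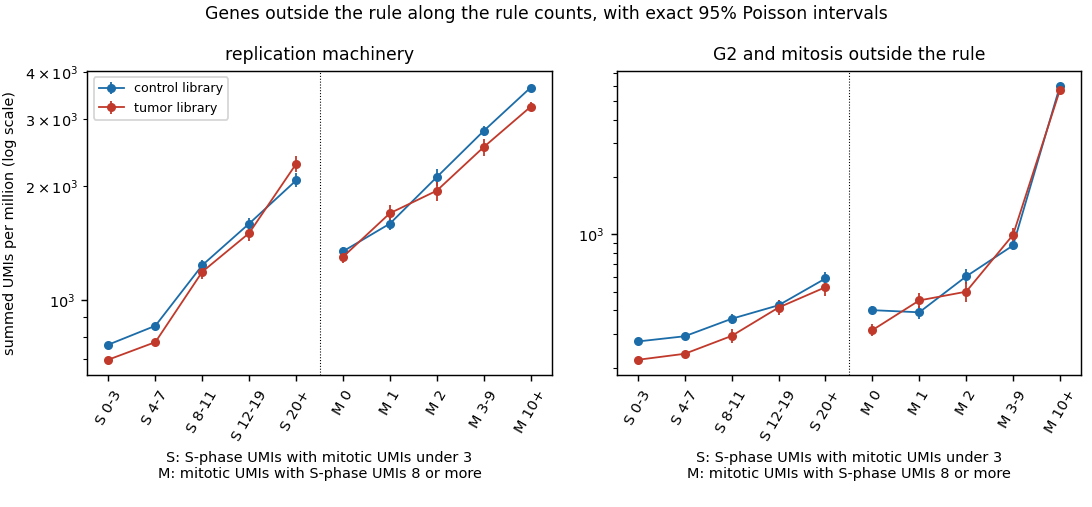
Summed level of gene lists outside the rule (CPM, log scale) in cells grouped by S-phase UMIs with mitotic UMIs under 3 (left of the dotted line) and by mitotic UMIs with S-phase UMIs of 8 or more (right), with exact 95% Poisson intervals. In control the replication machinery goes from 762 CPM at the lowest S-phase count to 3632 CPM at the highest mitotic count.

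Ranked over genes that reached 50 CPM in either class of each library, the 10 that stood highest over other cells in both were Lig1, Dut, Topbp1, Dtymk, Siva1, Dnmt1, Hat1, E2f1, Rbl1 and Nasp. Lig1 led these with a log2 ratio of 1.62 (1.46 to 1.77) in control and 2.62 (2.41 to 2.83) in tumor, followed by Dut with 1.25 and 2.09. Siva1, a gene known for a part in cell death, was the member of these 10 that belongs to no list used here, at 104 and 99.2 CPM against 54.7 and 48.5 CPM in other cells. Hat1, an acetyltransferase of new histones, was at 75.05 and 75.9 CPM against 43.1 and 30.4 CPM, and the histone chaperone Nasp at 119 and 109 CPM against 74.8 and 47.7 CPM. The 10 lowest were Hist1h1c, Cd14, Insig1, Cdkn1a, Hist1h2bc, Fcgr2b, Mmp12, Fcgr3, Mfge8 and Cds2. Cd14, the co-receptor for lipopolysaccharide, was at 151 CPM against 209 CPM in control and 279 CPM against 380 CPM in tumor. Fcgr2b and Fcgr3, receptors for immunoglobulin G, were at 82.3 against 109 CPM and 186 against 241 CPM in control, and at 119 against 162 CPM and 182 against 266 CPM in tumor. Mmp12, the macrophage elastase, was at 96.3 against 126.5 CPM in control, but 5 cells held 67.5% of its UMIs there and 63.0% in tumor.

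Compared with mitotic cells, 3.62% of genes were higher and 12.8% lower in control S-phase cells, and 5.94% and 13.6% in tumor. The genes that stood highest were Hspa1b, Hspa1a, Hist1h2bc, Aldoc and Slc39a2. Hspa1b and Hspa1a code for inducible heat shock protein 70 and are near-identical copies, so their separate values are uncertain. Hspa1b was at 129 CPM in control and 309.8 CPM in tumor S-phase cells against 38.1 and 50.1 CPM in mitotic cells. Aldoc, an aldolase, was at 59.9 and 84.5 CPM against 33.4 and 41.9 CPM, and Slc39a2, a zinc transporter, at 57.6 and 64.9 CPM against 35.1 and 31.8 CPM. The lowest were Cenpf, Ccna2, Aspm, Hist1h1b and Esco2, each under 2 CPM in S-phase cells of both libraries.

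S-phase cells kept the transcripts of AM identity. All 15 AM markers were detected, and they summed to 18664 CPM in control and 16607 CPM in tumor S-phase cells. Of 21 AM identity genes, 1 was higher than in other cells in both libraries (Marco) and none lower, with list medians of 0.02 and 0.07. Chil3, the chitinase-like protein typical of AMs, was at log2 ratios of -0.10 and -0.04, and the lipoprotein lipase Lpl at -0.04 and -0.01. Marco, a scavenger receptor of AMs, was at 865 CPM (842 to 888) in control S-phase cells, 546 CPM in remaining and 629 CPM in mitotic cells. In tumor it was at 353, 198 and 204 CPM in the same order. At 3800 UMIs per cell, 75.4% (71.3 to 79.3) of control S-phase cells had a Marco UMI, against 60.5% of remaining cells, and 39.2% (33.5 to 45.0) against 26.5% in tumor. Read the other way, with the class taken at full depth and Marco at 3800 UMIs, 10.0% of control cells with a Marco UMI were S-phase cells against 5.44% of those without, and 6.06% against 3.501% in tumor. Marco went from 522 CPM at 0 to 3 S-phase UMIs to 983 CPM at 20 or more in control, and in tumor from 197 CPM at 0 to 3 to 379 CPM at 8 to 11 and 338 CPM at 20 or more.

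Car4, the carbonic anhydrase of AMs, was above other cells in tumor, at 304 CPM against 138 CPM, and less so in control, at 306 CPM against 246 CPM, a log2 ratio of 0.32 that did not pass 1.5-fold. Fabp1, a fatty acid binding protein, was at 664 CPM in control S-phase cells against 505 CPM in remaining cells and at 186 CPM against 128 CPM in tumor. At equal depth, 72.4% of control S-phase cells had a Fabp1 UMI against 62.0% of remaining cells, and 33.3% against 24.7% in tumor. Both of these genes stood on the same side in the 2 libraries without passing 1.5-fold in both.

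**Figure D5:**
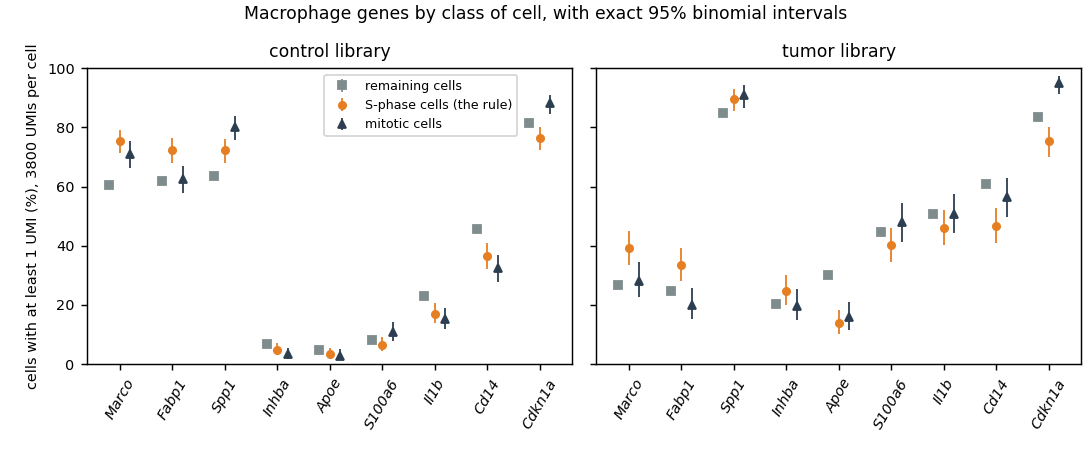
Share of cells with at least 1 UMI (percent, each cell thinned to 3800 UMIs) of 9 macrophage genes in S-phase, mitotic and remaining cells of each library, with exact 95% binomial intervals. Marco is seen in 75.4% of S-phase and 60.5% of remaining control cells, and Apoe in 13.7% of S-phase and 30.1% of remaining tumor cells.

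Apoe, the apolipoprotein taken up with lipid particles, stood far below the remaining cells in tumor S-phase cells. It was at 118 CPM (107 to 130) there, 654 CPM in remaining cells and 173 CPM in mitotic cells, a log2 difference from other cells of -2.42 (-2.56 to -2.28). At 3800 UMIs per cell, 40 of 291 tumor S-phase cells (13.7%) had an Apoe UMI against 30.1% of remaining cells. A few cells carried much of it, since 5 cells held 49.8% of the Apoe UMIs of tumor S-phase cells. By S-phase count, Apoe was at 618 CPM at 0 to 3 UMIs, 808 CPM at 4 to 7, 132 CPM at 8 to 11, 120 CPM at 12 to 19 and 78.9 CPM at 20 or more. Just outside the rule, the 74 cells at 7 UMIs were at 1635 CPM, and the 55 just inside at 8 were at 115 CPM. The level at 7 UMIs was above that of the whole range of 4 to 7, and whether a few cells carried it was not tested. Summed over Apoe, S100a6, S100a4 and Crip1, at least 5 UMIs were present in 44.3% of tumor S-phase and 49.6% of remaining cells at 3800 UMIs per cell. In control, where Apoe was low throughout, it was at 21.2 CPM in S-phase and 28.2 CPM in remaining cells, and 3.23% and 4.78% of cells had a UMI.

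The comparison of tumor with control S-phase cells asks whether cells of this class carry the same shift between libraries as the other cells. Of 10195 genes, 7.71% were at least 1.5-fold higher and 7.02% lower in tumor S-phase cells, and 5.27% and 6.64% in tumor other cells. A list of 13 genes typical of the tumor library, chosen on these samples and so no separate evidence, was higher for 13 of 13 in S-phase cells with a median log2 ratio of 1.77, and for 13 of 13 in other cells with a median of 1.73. Within each library the list lay below the other cells, with S-phase over other log2 medians of -0.29 in control and -0.28 in tumor and 3 of 13 genes above 0 in each. In control 3 of 13 were at least 1.5-fold lower (Il1b, S100a4 and S100a6) against 3.37% of all genes, and in tumor 1 of 13 (Apoe) against 4.86%. Il1b, a pro-inflammatory cytokine, was at 78.5 CPM in control and 546 CPM in tumor S-phase cells, Ifi27l2a, an interferon-induced gene of this list, at 31.5 and 503 CPM, and Spp1, or osteopontin, at 595 and 2027 CPM. Il1b was below other cells in both libraries, with log2 ratios of -0.85 and -0.35. Spp1 was slightly above other cells in control, with a log2 ratio of 0.08 (0.03 to 0.12), and below them in tumor, with -0.29 (-0.33 to -0.26). Inhba, which codes for the subunit of activin A, was at 32.7 CPM in control and 161 CPM in tumor S-phase cells, a log2 ratio of 2.30 (2.07 to 2.54) against 1.65 in other cells. Inhba stood below other cells in control, with a log2 ratio of -0.52 (-0.73 to -0.32), and slightly above in tumor, with 0.13 (0.01 to 0.25). Over remaining cells the tumor ratio was 0.10 (-0.02 to 0.22), and 5 cells held 51.4% of the 208 Inhba UMIs of control S-phase cells. At equal depth, 4.74% of control S-phase cells had an Inhba UMI against 6.78% of remaining cells, and 24.7% against 20.1% in tumor.

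Interferon genes shifted in S-phase cells too. All 7 tested in both libraries were higher in tumor S-phase cells, with a median log2 ratio of 2.14 against 1.77 in other cells. Bst2, which tethers budding virus, was at 103 CPM in control and 231 CPM in tumor S-phase cells. Of 18 cholesterol synthesis genes, 11 were higher in tumor S-phase cells and none lower, with a median of 0.85 against 0.76 in other cells. Genes that were lower in tumor S-phase cells were led by Epcam (58.1 to 4.56 CPM), Fabp1 (664 to 186 CPM), Gal (89.4 to 27.6 CPM), Mmp12 (96.3 to 31.9 CPM) and Igflr1 (66.1 to 23.1 CPM). Marco was at a log2 ratio of -1.29 (-1.38 to -1.21) in S-phase cells and of -1.48 in other cells.

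Within the class the replication machinery had ratios near 0 between the libraries, and the rule held the S-phase count to a common minimum. Its median log2 ratio of tumor over control was 0.04 in S-phase cells, with 1 of 46 genes higher and none lower, and -0.55 in other cells, with none higher and 21 lower. Lig1 had a ratio of -0.01 (-0.24 to 0.22) in S-phase cells and of -1.01 in other cells, and Dut of -0.19 (-0.40 to 0.01) and -1.03. In other cells, mitotic cells were the smaller part in tumor, and G2 and mitosis genes had a median of -0.98. Their part in the lower replication genes there was not tested.

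S100a6 and S100a4, small calcium-binding proteins, and Ifitm3, an antiviral membrane protein, led the genes higher in tumor S-phase cells. A few cells with markers of other cell types carried part of that, and whether they were cells of other types was not tested. S100a6 was at 29.3 CPM in control and 699 CPM in tumor, S100a4 at 11.3 and 188 CPM, and Ifitm3 at 1.26 and 50.2 CPM. Cells with at least 10 UMIs of T and NK, B, fibroblast or endothelial markers were 1 of 470 control and 4 of 292 tumor S-phase cells, against 17 of 5280 and 13 of 7131 remaining cells. Without these cells the tumor levels were 451 CPM for S100a6, 172 CPM for S100a4 and 31.1 CPM for Ifitm3. S100a6 then stood below tumor other cells, at a log2 ratio of -0.24 where all cells had given 0.29, and S100a4 at 0.12 where all cells had given 0.24. This limit was chosen after the values had been seen.

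Markers of other cell types varied in S-phase cells. Markers of tumor-associated macrophages or monocytes summed to 316 CPM in control and 792 CPM in tumor S-phase cells, below the 375 and 964 CPM of other cells. Fn1, or fibronectin, gave 2800 of the 2955 UMIs in tumor. At least 3 UMIs of the list were seen in 49.6% and 73.3% of S-phase cells against 43.1% and 64.2% of the shallower other cells. The 8 genes differed in direction. In tumor, Fn1 (751 against 928 CPM in other cells), Ccr2 (4.83 against 9.40 CPM) and Itgam (4.02 against 15.7 CPM) were lower, as they were in control. Cx3cr1 was higher in both libraries, at 5.51 against 1.59 CPM in control and 4.02 against 3.06 CPM in tumor. Ly6c2 (6.70 against 1.46 CPM) and Plac8 (16.4 against 3.07 CPM) were higher in tumor only, where 5 cells held 100% and 95.1% of their UMIs, as were Vcan (5.10 against 3.47 CPM) and Tgfb3 (0.536 against 0.0922 CPM, on 2 UMIs). Epithelial markers were at 74.9 CPM in control and 22.0 CPM in tumor against 72.1 and 15.2 CPM in other cells, most of it from Epcam in control. T and NK markers reached at least 3 UMIs in 1 cell of each library, fibroblast markers in 0 control and 2 tumor cells, and endothelial markers in 0 control and 2 tumor cells. B cell markers summed to 10 UMIs in control and 0 in tumor, dendritic cell markers to 1 and 0, and mast cell markers to 0 in both. Of 6 neutrophil markers, S100a9, Retnlg and Ly6g were at 0 in S-phase cells of both libraries, while S100a8 was at 37.0 and 75.9 CPM, Mmp8 at 32.9 and 29.5 CPM and Csf3r at 6.29 and 5.63 CPM. The 6 together were at 76.2 CPM in control and 111 CPM in tumor S-phase cells against 106 and 142 CPM in other cells. Tumor log2 ratios over other cells were also taken without cells holding at least 10 UMIs of T and NK, B, fibroblast or endothelial markers. They were 2.65 for Lig1, 0.16 for Inhba and -0.51 for Ifitm3, where all cells had given 2.62, 0.13 and -0.10. The part of the other marker lists in these levels was not tested. Barcodes with a high doublet score were 6.17% of S-phase and 4.29% of other cells in control and 9.59% and 5.18% in tumor. Without the 6% of barcodes with the highest scores, S-phase cells were 7.46% of control and 3.64% of tumor cells, and the median log2 ratio of the replication machinery over other cells was 0.54 and 1.30 where all cells had given 0.49 and 1.18. Mitochondrial UMIs were a median of 2.70% in control and 2.43% in tumor S-phase cells, near the 2.69% and 2.48% of other cells.

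Most other gene groups lay close to the other cells. None of the lists for growth factor receptors and signalling, MHC class II, immediate early and stress genes, chemokines and cytokines, lipid handling, glycolysis, the respiratory chain, lysosomes or iron and NRF2 had a gene past 1.5-fold in both libraries in either direction, nor had cholesterol synthesis. Of the interferon genes 1 was lower in both (Cxcl9, at 1.42 CPM against 4.46 CPM in control and 9.39 CPM against 23.9 CPM in tumor). Nucleolar and protein synthesis genes had medians of 0.26 in control and 0.50 in tumor over other cells, where 0 of 15 were higher in control and 5 of 15 in tumor, and 3 of 15 were higher than remaining cells in both libraries, Nop58, Ran and Srm. Ctss, a lysosomal protease, was at 2226 against 2410 CPM in control and 2959 against 4117 CPM in tumor. Csf2rb, a receptor subunit for the growth factor that maintains AMs, was at log2 ratios of 0.01 and -0.07. Ccl6, the chemokine with the most UMIs, was at 3867 CPM in control and 6210 CPM in tumor S-phase cells against 3418 and 5738 CPM in other cells. Xist, Actb, Gapdh and Ptprc were measured as reference genes. Xist was at 953 and 858 CPM, Ptprc, which codes for CD45, at 616 and 565 CPM, and Gapdh at 1212 and 1170 CPM in control and tumor S-phase cells.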

How the data were processed

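Single-cell transcriptomes of sorted AMs were made with droplet 3' chemistry, 1 library per condition. The authors deposited raw UMI counts per gene and barcode for mm10, for the 8485 and 9175 barcodes left after Cell Ranger and before the quality filter. The methods name Cell Ranger 5.0.0 and the submitters' processing notes Cell Ranger 4.0.0 with bcl2fastq 2.20. The methods assign barcodes to samples by hashtag reads, which were not used here, so each table was taken as 1 library of its labelled condition. Of 32285 gene identifiers, 32158 had a symbol.

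Filters, classes, CPM, exact intervals and thinning (without replacement, seed 1) were computed from the counts with Python 3.11.15, numpy 2.4.6, scipy 1.17.1 and pandas 2.3.3, and figures with matplotlib 3.10.9. Genes with at least 100 UMIs over the filtered cells of a library were compared. The intervals were tried on simulated Poisson counts, drawn for each gene without single cells. That trial could not show how they hold where a few cells carry a gene. Doublet scores came from Scrublet in scanpy 1.11.5. Its automatic threshold marked 0 barcodes in each library, so no cell was removed, and the 6% with the highest scores were left out in an alternative. No test was possible with a lone library on each side.

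Cells and gene lists were chosen with earlier results of these data known. Named genes were those of the rule, up to 4 of each list with the most UMIs, list genes past 2-fold in both libraries, and the 10 highest and lowest ratios over other cells (5 and 5 for the other contrasts) among genes at or above 50 CPM, leaving out ribosomal and mitochondrial genes. Further list genes were named after their values were seen, for their roles in replication. Promoter windows came from RefSeq GRCm38.p6. Some listed genes are counted but not reported here by name.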

Additional observations from a re-analysis of the deposited data

Results flagged for a closer look

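Among the 124 genes examined for this (those named in the text outside the rule), a gene was picked out when the interval of its ratio of S-phase over other cells lay above 0 in one library and below 0 in the other, and there were 5. Inhba had a log2 ratio of -0.52 in control and 0.13 in tumor. S100a4 had -1.10 in control and 0.24 in tumor. S100a6 had -0.91 in control and 0.29 in tumor. Spp1 had 0.076 in control and -0.29 in tumor. Plac8 had -3.21 in control, from 1 UMI in S-phase cells, and 2.41 in tumor, from 61 UMIs. With 1 library per condition, the difference between libraries was not tested for any of the 5. The intervals that picked them leave out the spread between cells, and 5 cells held 51.4% of the Inhba UMIs of control S-phase cells. Without cells that carried at least 10 UMIs of T and NK, B, fibroblast or endothelial markers, the tumor ratio was -0.24 for S100a6, 0.12 for S100a4 and 0.95 (-0.05 to 1.81) for Plac8.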

How the results depend on the processing

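Over 21 alternative settings, 27 results gave 293 values. Of these, 227 stayed within the interval of their result or the allowed ratio of counts. A further 62 moved beyond it and 4, all of the G2 and mitosis list, changed sign by more than that. For list medians this interval came from the spread between the genes of the list, not from counting error. The AM identity medians over other cells lay near 0 and kept their sign in 13 of 15 settings in control and 11 of 15 in tumor. Each alternative below changes 1 choice, except that another set of rule genes came with its own minimum, and the cause of a change was not tested unless the setting itself gives it.

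Where the rule was drawn set the share. At a minimum of 6 S-phase UMIs the shares were 12.3% in control and 6.63% in tumor, the thinned difference of tumor minus control was -1.86 percentage points, and the replication machinery had a median log2 ratio of 0.31 over other cells in control and of -1.42 in control and -1.06 in tumor over mitotic cells. In that setting 76 genes were higher in control, and 318 were higher and 276 lower in tumor, where the rule as used gave 199 higher and 353 lower in control and 632 higher and 511 lower in tumor. At a minimum of 12 the shares were 3.78% and 1.90%, the thinned difference was -0.22, 439 genes were higher and 557 lower in control, 834 were lower in tumor, and in tumor the median was -0.45 for the replication machinery over mitotic cells and -0.093 for AM identity over other cells. With 0 mitotic UMIs allowed the shares were 4.70% and 2.31%, the thinned difference was -0.34, and 538 genes in control and 825 in tumor were lower.

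With no mitotic limit, mitotic cells entered the class and the sign of the G2 and mitosis list changed, to 3.54 in control and 4.07 in tumor. The shares were then 13.2% and 5.99%, the thinned difference -2.50, the replication medians 2.26 and 2.23, the AM identity medians -0.11 and -0.14, and the counts 997 higher and 197 lower in control and 1098 higher in tumor. With the rule on UMIs per 10000, the tumor share was 4.37%, the replication medians over other cells were 0.95 and 1.49, the median over mitotic cells in control was -0.74, and 468 genes were higher in control. With Pcna, Tyms and Pclaf alone at a minimum of 4 UMIs, the shares were 11.7% and 7.57%, the replication medians 0.10 and 0.40, the AM identity median in tumor -0.031, and 41 genes in control and 145 in tumor were higher and 262 in tumor lower.

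Leaving mitotic cells out of the compared cells gave replication medians of 1.28 in control and 1.54 in tumor and 496 genes higher in control, and the G2 and mitosis medians changed sign, to 0.68 and 0.997. Weighting the compared cells to the depth of the S-phase cells gave a replication median of 0.36 in control and an AM identity median of 0.16 in tumor. The mean of each cell's CPM gave a replication median of 0.88 and 342 genes higher in control. A minimum of 20 UMIs per gene gave 533 higher and 1019 lower in control and 1269 and 1109 in tumor, and a limit of 2-fold gave 33 and 148 in control and 205 and 189 in tumor. Without thinning the difference of shares was -3.79, and with at least 4 UMIs after thinning, chosen after seeing the data, it was -3.40. Leaving out mitotic cells was also chosen then.

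Counting depth limits low genes: Ccna2 rests on 3 and 1 UMIs. No paired analysis was possible because each condition had 1 library.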

Other observations

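Barcodes that failed the filter on genes or mitochondrial UMIs held few cells of this kind. Of 2300 such barcodes in control, 2 met the UMI rule, and of 1509 in tumor, 1 did, and all 3 of them were over the mitochondrial limit. Barcodes with at least 3 mitotic UMIs numbered 42 and 10 in the same sets.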
